A study of Mus musculus with 4 samples.

Results

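Transcripts of 7 matrix metalloproteinases (MMPs) and 3 of their tissue inhibitors (TIMPs) were measured in mouse macrophages grown from bone marrow. The members were the rows of the gene count files named Mmp2, Mmp8, Mmp9, Mmp12, Mmp13, Mmp14, Mmp19, Timp1, Timp2 and Timp3. All 10 were found among 18256 gene symbols and all passed the filter on low counts. The 4 libraries, 2 unstimulated (M0) and 2 stimulated (M1), came from marrow of wild-type animals whose strain, sex and age the labels do not give. Marrow cells were turned into macrophages over 7 days with 20 ng/ml of recombinant macrophage colony-stimulating factor (MCSF), the growth factor that drives this lineage. M0 cells stayed in MCSF for the last 24 h, and M1 cells had medium with 20 ng/ml of interferon-gamma (IFN-γ) and 100 ng/ml of lipopolysaccharide (LPS), a bacterial cell wall component. Whether the M1 medium also held MCSF is not stated, so the loss of MCSF and the addition of IFN-γ and LPS cannot be told apart if it did not. The labels do not say whether the 2 libraries of a group had separate animals or dishes behind them. The p-values therefore rest on a spread between libraries that may be technical.

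MMPs are zinc-dependent endopeptidases that cut extracellular matrix, and also chemokines, cytokine precursors and other proteases. They are made as inactive proenzymes held shut by a prodomain, and TIMPs block the active enzymes by binding the catalytic zinc. Macrophages use them to move through matrix, to clear debris and to trim signals during inflammation. Mmp13 and Mmp8 are collagenases, Mmp2 and Mmp9 gelatinases, Mmp12 the macrophage elastase, Mmp14 a membrane-anchored enzyme that activates the proenzymes of Mmp2 and Mmp13, and Mmp19 a secreted enzyme that cuts basement membrane proteins.

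Library totals ran from 15921466 to 18987705 counts. Levels are given as counts per 1000000 (CPM) of library totals scaled by TMM factors, and 3 counts, the smallest level told apart from 0, corresponded to 0.144 to 0.185 CPM. Macrophage marker transcripts were abundant. Over 10 genes they summed to 24583 to 26906 CPM in M0 and 33053 to 33271 CPM in M1. Most of each sum was Lyz2, which did not pass (14425 and 16578 CPM in M0, 18558 and 17596 CPM in M1). Of the 10 genes, 5 were called higher in M1, 2 lower (Cd68 and Mertk) and 3 did not pass. Of all tested genes, 24.2% were called higher and 24.0% lower by the edgeR test described below. The activation marker Nos2, the inducible nitric oxide synthase, had 6 and 0 counts in M0 and 842 and 870 in M1. In bulk RNA, fewer cells of a type and less RNA per cell cannot be told apart.

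The promoters of 4 genes are shown because they belong to the protease and inhibitor genes that the results turn on. Each stretch ends at the base before a RefSeq transcription start (GRCm38.p6, the assembly that mm10 names), runs 5′ to 3′ on the gene's strand and lies outside annotated exons of its gene. Capitals mark the letters TGANTCA (the AP-1 element), TATAAA (the TATA box) and GGGCGG (the GC box, bound by Sp1-type factors) on either strand.
Mmp13, chr9:7272264-7272513, + strand: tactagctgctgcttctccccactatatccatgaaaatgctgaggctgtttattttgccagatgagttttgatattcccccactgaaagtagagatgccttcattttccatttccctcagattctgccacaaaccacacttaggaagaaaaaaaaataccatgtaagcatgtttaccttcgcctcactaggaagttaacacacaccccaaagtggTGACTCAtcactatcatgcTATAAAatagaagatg
Mmp12, chr9:7347124-7347373, + strand, the downstream of its 2 RefSeq starts: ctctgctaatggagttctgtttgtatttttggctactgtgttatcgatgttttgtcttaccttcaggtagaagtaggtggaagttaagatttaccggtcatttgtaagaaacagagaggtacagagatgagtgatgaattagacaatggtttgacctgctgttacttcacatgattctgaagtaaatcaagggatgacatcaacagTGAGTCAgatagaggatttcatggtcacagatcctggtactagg
Mmp14, chr14:54431348-54431597, + strand: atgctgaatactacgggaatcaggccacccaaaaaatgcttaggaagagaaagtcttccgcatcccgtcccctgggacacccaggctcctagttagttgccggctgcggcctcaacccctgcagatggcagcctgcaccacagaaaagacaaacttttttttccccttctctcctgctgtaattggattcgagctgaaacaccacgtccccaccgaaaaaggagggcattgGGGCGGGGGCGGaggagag
Timp1, chrX:20869916-20870165, + strand: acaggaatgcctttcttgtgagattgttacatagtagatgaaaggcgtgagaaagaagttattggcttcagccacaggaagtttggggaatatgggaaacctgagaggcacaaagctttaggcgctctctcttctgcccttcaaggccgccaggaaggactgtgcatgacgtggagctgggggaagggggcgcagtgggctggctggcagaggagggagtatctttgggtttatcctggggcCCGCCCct
The AP-1 letters stood 35 to 29 bases before the Mmp13 start and 44 to 38 bases before this Mmp12 start. They were found in 6.75% of 32851 promoter stretches of the same length. The Mmp13 stretch held TATAAA as well, which 12.4% of stretches do. Neither motif was in the Mmp14 or Timp1 stretch. These held GGGCGG, at 2 adjoining places in Mmp14 and on the opposite strand in Timp1, and 32.7% of stretches hold it. GGGCGG was also matched before the starts of Timp2 and Timp3, which are not shown and whose transcripts fell. No Timp2 stretch could be printed, because its first base already lies in an annotated exon of its gene. Also searched on both strands were AGGAAG, bound by ETS factors and found in 29.5% of stretches, which all 4 genes shown but Mmp12 at this start held, and TTCNNNGAA, the GAS element of STAT factors (7.02% of stretches), which no matched member held. Matches did not overlap one another. RefSeq promoters were matched for 7 of the 10 members, and of these only Mmp12 and Mmp13 held the AP-1 letters. For Mmp12 this holds at the downstream start alone, as the stretch before the upstream start had no AP-1 match. A match is a description of these letters and does not show that a factor was bound.

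The comparison asked how M1 differed from M0. The set of MMP transcripts changed its leading members: Mmp12 fell to 36.1% of its M0 level while Mmp13 rose 69.9-fold and Mmp14 rose 13.6-fold. Among the inhibitors Timp2 fell to 12.8% and Timp3 to 41.0% of the M0 level, and Timp1 rose 3.98-fold. Of the 10 members, 4 rose (Mmp13, Mmp14, Mmp9 and Timp1), 4 fell (Mmp12, Mmp8, Timp2 and Timp3) and 2 did not pass (Mmp2 and Mmp19), by edgeR's quasi-likelihood test at an adjusted p under 0.05. Over all 12966 tested genes, 24.2% were called higher and 24.0% lower, 48.2% in either direction, so calls were common in this contrast. Called and at least doubled were 4 members, against 9.93% of all tested genes, and called and at least halved were 3, against 11.6%. The median log2 fold change was -0.13 over the members and -0.02 over all tested genes. The M0 and M1 libraries did not overlap for 9 of the 10 members, which is the case for 74.9% of tested genes.

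**Figure D1:**
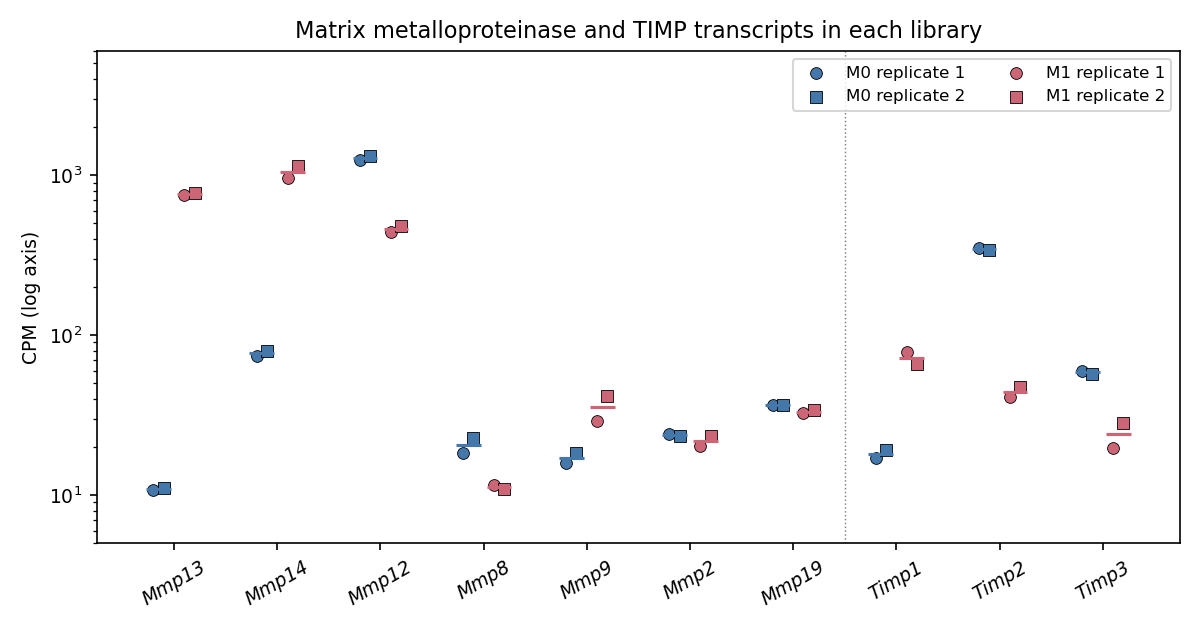
Level of each member in CPM (log axis) in the M0 (blue) and M1 (red) libraries, replicate 1 as circles and replicate 2 as squares, with lines at the group means. Mmp13 and Mmp14 stand far higher in both M1 libraries and Timp2 far lower, while the Mmp2 libraries overlap between groups.

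Collagenase transcripts went opposite ways. Mmp13, which cuts fibrillar collagen (chromosome 9, 7272514 to 7283331 in GRCm38), was at 10.8 and 11.01 CPM in M0 replicates 1 and 2 and at 752 and 774 CPM in M1. Both M1 libraries lay far above both M0 libraries, with a log2 fold change of 6.13 (SE 0.12, adjusted p = 3.9e-11 by edgeR). That placed Mmp13 at rank 120 of 12966 by size of rise. Mmp8, the collagenase best known from neutrophil granules (chromosome 9, 7558456 to 7568485), was at 18.5 and 22.9 CPM in M0 and at 11.5 and 10.9 CPM in M1. The groups did not overlap, but the M0 libraries lay apart from each other, and the log2 fold change was -0.88 (SE 0.18, adjusted p = 0.00213). Without M0 replicate 2 it was not called, at -0.71 with an adjusted p = 0.0587.

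Mmp14 transcripts, for the membrane enzyme also called MT1-MMP (chromosome 14, 54431612 to 54445364), rose from 74.0 and 80.1 CPM to 957 and 1136 CPM. The spread between the M1 libraries was small beside the rise, which was 3.76 on the log2 scale (SE 0.12, adjusted p = 8.6e-10), rank 280 among rises. Mmp2, the gelatinase whose proenzyme Mmp14 and Timp2 together activate at the cell surface (chromosome 8, 92827291 to 92853420), was at 24.2 and 23.4 CPM in M0 and 20.3 and 23.6 CPM in M1. Its groups overlapped and no change passed (log2 fold change -0.12, SE 0.15, adjusted p = 0.554).

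Mmp9, the other gelatinase (chromosome 2, 164940780 to 164955850), was at 16.0 and 18.4 CPM in M0 and at 29.2 and 41.7 CPM in M1. Both M1 libraries were higher, though they differed from each other, and the rise of 1.05 (SE 0.19, adjusted p = 0.00077) was small beside that of Mmp13 or Mmp14. Mmp9 no longer passed when M0 replicate 1 was left out (0.95, adjusted p = 0.0773) or when M0 replicate 2 was (1.15, adjusted p = 0.0512). In such fits the lone M0 library is assumed to vary like the M1 libraries.

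Mmp12, the elastase of macrophages (chromosome 9, 7344381 to 7369499), was the most abundant MMP transcript in M0, at 1245 and 1309 CPM. In M1 it stood at 442 and 480.5 CPM, below both M0 libraries, a log2 fold change of -1.47 (SE 0.10, adjusted p = 2.83e-07). Per kb of exon, only Mmp13 and Mmp14 were above Mmp12 among the MMP members in M1. Mmp19 (chromosome 10, 128790910 to 128800824) stayed within a narrow range, at 36.4 and 36.7 CPM in M0 and 32.4 and 33.8 CPM in M1. The M1 libraries lay just below, and the difference did not pass (-0.14, SE 0.13, adjusted p = 0.383). It passed as lower (-0.39, adjusted p = 0.0219) when libraries were scaled by their totals alone, which moved the median of all genes by -0.25. Exons of the opposite-strand gene Tmem198b share 22.3% of the Mmp19 exon bases, and Tmem198b itself had 5.05 to 8.44 CPM. The strand setting of the counting is not given in the sources used here.

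TIMP transcripts split. Timp2, the inhibitor that also serves as the docking partner for the Mmp2 proenzyme (chromosome 11, 118301069 to 118355740), was at 351 and 338 CPM in M0 and fell to 40.7 and 47.3 CPM in M1. The groups stood far apart, with a log2 fold change of -2.97 (SE 0.11, adjusted p = 2.88e-09), rank 324 among falls. Timp3, which binds to matrix and also inhibits the shedding protease Adam17 (chromosome 10, 86300372 to 86349506), was at 59.7 and 57.4 CPM in M0 and 19.8 and 28.2 CPM in M1. Both M1 libraries were lower, with a log2 fold change of -1.29 (SE 0.16, adjusted p = 6.01e-05), and they differed more from each other than the M0 libraries did. Timp3 lies inside the opposite-strand gene Syn3, whose exons share 21.3% of its exon bases, and Syn3 had between 0 and 7 counts in a library.

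Timp1, the soluble inhibitor that binds the proenzyme of Mmp9 (chromosome X, 20870166 to 20874735), went the other way. It was at 17.2 and 19.0 CPM in M0 and at 78.1 and 66.0 CPM in M1, with no overlap and a log2 fold change of 2.00 (SE 0.14, adjusted p = 4.38e-07). Timp1 lies inside the opposite-strand gene Syn1, with no exon base in common.

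Levels of different genes were compared only after dividing CPM by the kilobases of annotated exon. On that scale the order of group mean levels in M0 was Mmp12 (176 ± 6.30 CPM per kb, SD, n = 2), Timp2 (88.5 ± 2.25), Timp1 (20.4 ± 1.47), Mmp14 (12.9 ± 0.718) and Mmp19 (10.3 ± 0.0579). Below these came Mmp8, Timp3, Mmp2, Mmp9 and Mmp13, between 8.52 and 4.09 CPM per kb, where the libraries of Timp3 and Mmp2 overlapped. The order in M1 was led by Mmp13 (286 ± 5.82 CPM per kb), Mmp14 (176 ± 21.3), Timp1 (81.1 ± 9.64) and Mmp12 (63.8 ± 3.72). After them came Timp2, Mmp9 and Mmp19, between 11.3 and 9.38 CPM per kb with libraries that overlapped, and then Mmp2, Mmp8 and Timp3, between 6.51 and 2.95. By annotated exon length, Mmp13 was thus lowest of the 10 members in M0 and highest in M1. These orders depend in part on the length used. With the length of the longest transcript, Mmp14 stood above Mmp13 in M1, Mmp12 above Timp1, and Timp3 above Mmp8. The M1 libraries of Timp3 and Mmp8 overlapped on that scale. In M0, Mmp14 then stood above Timp1 and Timp3 above Mmp19, and Mmp13 remained lowest.

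As a share of the summed CPM per kb of the 7 MMP members, Mmp12 made up 78.9% and 78.5% in the M0 libraries and 11.5% in each M1 library. The Mmp13 share was 1.86% and 1.79% in M0 and 53.0% and 49.98% in M1. For Mmp14 it was 5.70% and 5.83% in M0 and 30.2% and 32.9% in M1. The proteases that led each group therefore differed in both replicates, while Mmp2, Mmp8, Mmp9 and Mmp19 each held at most 4.72% of the sum in any library. Of the 3 inhibitors, Timp2 made up 77.2% and 75.3% in M0 and 10.4% and 13.5% in M1. Timp1 made up 16.6% and 18.6% in M0 and 87.2% and 82.7% in M1. These shares depend on the annotated exon lengths. With the length of the longest transcript instead, Mmp14 (43.3%) came before Mmp13 (38.4%) in M1, and Mmp12 remained first in M0 (82.6%).

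**Figure D2:**
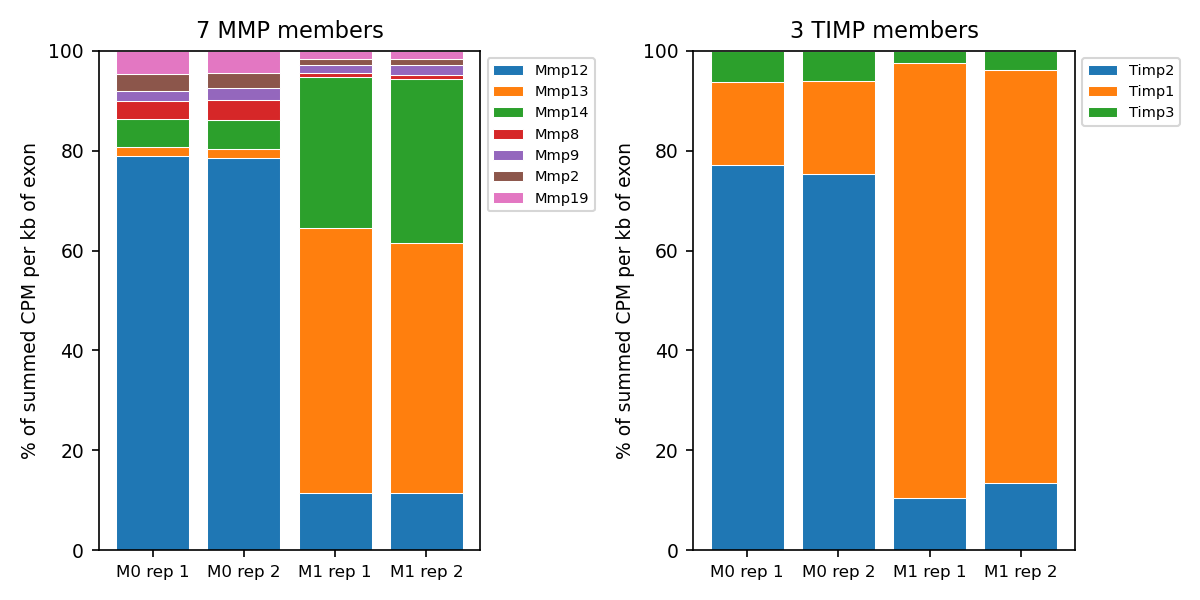
Share of each member in the summed CPM per kb of exon, for the 7 MMP members (left) and the 3 TIMP members (right), with 1 bar for each library. Mmp12 and Timp2 fill most of the M0 bars, and Mmp13, Mmp14 and Timp1 most of the M1 bars.

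The ratio of a protease transcript to its inhibitor transcript was taken in each library. Mmp14:Timp2 was 0.138 and 0.155 in M0 and 15.4 and 15.7 in M1, a 106-fold change that came from a rise above and a fall below. Mmp2:Timp2 was 0.0796 and 0.0799 in M0 and 0.576 in both M1 libraries, a 7.22-fold change with Mmp2 itself not called. Mmp9:Timp1 moved the other way, from 0.233 and 0.243 to 0.0937 and 0.159, since Timp1 rose by more than Mmp9. Mmp12:Timp1 fell from 8.90 and 8.45 to 0.695 and 0.893. In all 4 pairs the groups did not overlap. The pairs rest on the same 2 inhibitors, Timp1 and Timp2, whose own groups did not overlap either. The groups did not overlap for 74.9% of all tested genes. No test was made on these ratios, which are given as a description. An exact two-sided permutation test of 2 libraries against 2 cannot go below p = 0.3333, and a model test of log ratios was not run. With the length of the longest transcript Mmp12:Timp1 in M1 was 1.28 in place of 0.794, so which of these transcripts was higher in M1 is not settled by these lengths. The folds between groups do not depend on the length.

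**Figure D3:**
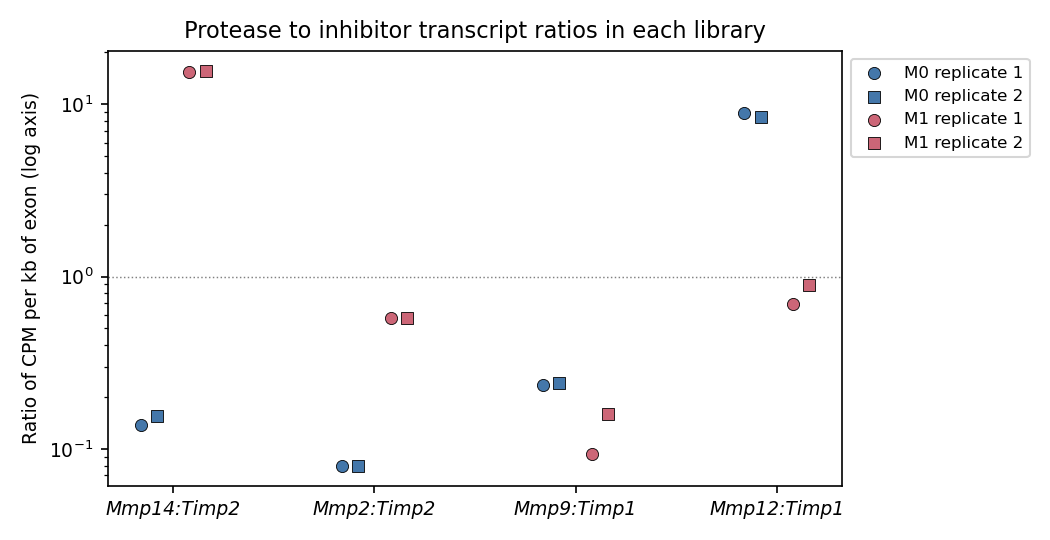
Ratio of the CPM per kb of a protease to that of an inhibitor (log axis) in each M0 (blue) and M1 (red) library, with a dotted line at equal levels. Mmp14:Timp2 and Mmp2:Timp2 are higher in both M1 libraries, and Mmp9:Timp1 and Mmp12:Timp1 are lower.

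Position on the chromosome was shared by part of the family. Mmp13, Mmp12 and Mmp8 lie in a run of 10 Mmp genes that spans 427 kb of chromosome 9. Mmp13 and Mmp12 are neighbouring Mmp genes there, on the same strand with starts 71.9 kb apart, and changed in opposite directions. Counts were analysed for 6 of the 10 genes. In order along the chromosome, Mmp13 rose, Mmp12 fell, Mmp3 and Mmp10 rose, and Mmp8 and Mmp27 fell. Mmp3, stromelysin-1, had no count in M0 and 35 and 17 counts in M1, at least 20.3-fold higher with M0 set at 3 counts over the group (adjusted p = 0.00106 by edgeR). Mmp10, stromelysin-2, had 4 and 0 counts in M0 and 14 and 21 in M1 (log2 fold change 3.30, SE 0.98, adjusted p = 0.0172). Mmp10 did not pass when M0 replicate 2 (2.45, adjusted p = 0.138) or M1 replicate 2 (3.00, adjusted p = 0.104) was left out. Mmp3 and Mmp10 have 8.39% and 8.37% of their 50-base stretches in common with other genes, each other among them, so reads could be split between them. For Mmp13 and Mmp8 no 50-base stretch was shared with another gene's transcripts. Mmp27, which stands next to Mmp8, was at 12.2 and 14.5 CPM in M0 and 4.43 and 7.75 CPM in M1 (-1.13, SE 0.27, adjusted p = 0.00535). Mmp27 no longer passed when M0 replicate 1 (-1.25, adjusted p = 0.0839) or M0 replicate 2 (-0.995, adjusted p = 0.135) was left out.

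**Figure D4:**
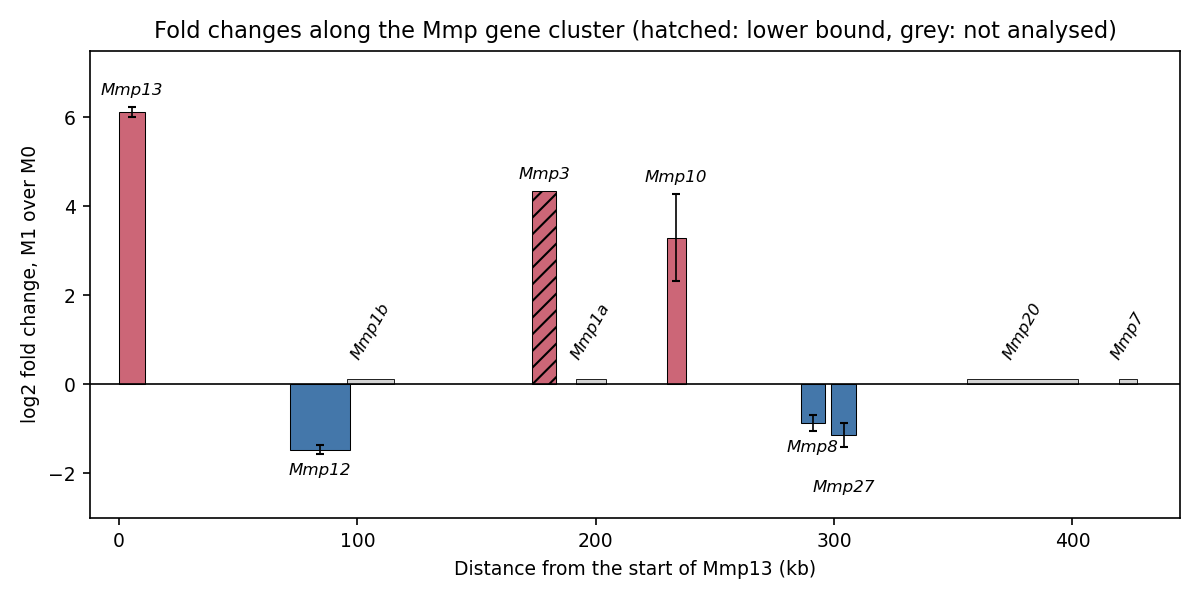
Fitted log2 fold change of M1 over M0 (bars, SE as whiskers) for Mmp genes placed by distance in kb from the start of Mmp13, red for higher and blue for lower. Mmp3 is drawn hatched at its lower bound because it had no count in M0, grey boxes were not analysed, and the neighbours Mmp13 and Mmp12 point in opposite directions.

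Outside this run, 8 further Mmp genes had counts, all at low levels. Mmp25, a membrane-anchored enzyme known from leukocytes, was at 0.815 and 0.869 CPM in M0 and at 5.29 and 6.52 CPM in M1 (2.80, SE 0.39, adjusted p = 0.00015). Mmp11 had 17 and 12 counts in M0 and none in M1, at least 8.24-fold lower, a call that was lost without M0 replicate 2. Without M0 replicate 1, Mmp11 was under the filter's minimum total of 15 counts and was not tested. Mmp16 had 16 and 12 counts in M0 and 2 and 0 in M1, an M0-over-M1 ratio of 11.9 (95% exact counting interval 3.01 to 103). Its edgeR call (adjusted p = 0.0239) was lost without M0 replicate 2, without M1 replicate 2, with no filter on low counts (0.0776) and with DESeq2 (0.0941). Like Mmp11, Mmp16 was under the filter's minimum total and not tested without M0 replicate 1. Mmp23 was at 3.88 and 3.71 CPM in M0 and at 0.616 and 1.48 CPM in M1 (-1.85, adjusted p = 0.00869), and was not called without M0 replicate 1 (0.120) or without M0 replicate 2 (0.102). Mmp15, Mmp17, Mmp21 and Mmp28 had at most 22 counts in any library and were not tested. Of all tested genes, 24.2% were called higher and 24.0% lower. Of the 7 tested genes of this wider family, 3 rose (Mmp3, Mmp10 and Mmp25) and 4 fell. Without M0 replicate 1, 3 were called higher and 0 lower, and without M0 replicate 2, 2 and 0. Under the stricter filter on low counts 1 was higher and 2 lower.

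MMPs are switched on and held in check by other systems: plasmin made through Plau, proprotein convertases, and partners that store or clear the enzymes. The list had 13 tested genes, of which 6 rose and 5 fell, with 2 not passing and a median log2 fold change of 0.54. Over all tested genes, 24.2% were called higher and 24.0% lower. Lcn2, the lipocalin that forms a complex with Mmp9 protein, was at 19.6 and 24.2 CPM in M0 and at 2472 and 2440 CPM in M1. That rise of 6.81 (SE 0.14, adjusted p = 5.24e-11) was larger than the 1.05 of Mmp9. Serpinb2, an inhibitor of plasminogen activators, rose from 9.30 and 9.27 CPM to 143 and 165 CPM (4.05, adjusted p = 9.63e-10). Plau, the urokinase that makes plasmin, fell from 96.3 and 91.6 CPM to 30.3 and 29.7 CPM (-1.65, adjusted p = 4.16e-07). Lrp1, an endocytic receptor that clears MMP and TIMP complexes, fell from 2410.2 and 1920.2 CPM to 482 and 728 CPM (-1.84, adjusted p = 6.91e-06). The genes around urokinase did not move one way. Its receptor gene Plaur rose from 39.3 and 37.9 CPM to 76.9 and 87.0 CPM (1.09, adjusted p = 1.8e-05). Serpine2, which also inhibits plasminogen activators, fell (-0.63, adjusted p = 0.0203). Serpine2 was not called with DESeq2 (adjusted p = 0.0669) or without M0 replicate 1 (0.0960), M0 replicate 2 (0.122) or M1 replicate 1 (0.0760). The count of lower genes was 2 without M0 replicate 1 and 2 without M0 replicate 2, 3 without M1 replicate 1 and 3 with DESeq2.

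Many members of the related ADAM and ADAMTS families shed surface proteins or cut proteoglycans. Among 18 tested genes there were 4 that rose, 6 that fell and 8 not passed, and a median log2 fold change of -0.01. Over all tested genes, 24.2% were called higher and 24.0% lower. Adam17, which releases tumour necrosis factor and is inhibited by Timp3, rose from 335 and 336 CPM to 493 and 512 CPM (0.58, adjusted p = 0.000333). Adam10, a shedding protease much like it, fell from 334 and 313 CPM to 199 and 213 CPM (-0.65, adjusted p = 0.000219). Adam19 rose from 5.80 and 4.17 CPM to 19.2 and 18.7 CPM (1.92, adjusted p = 2.76e-05). Adamts10 fell from 52.9 and 53.0 CPM to 14.5 and 16.0 CPM (-1.80, adjusted p = 9e-07). The largest changes of the list were at levels under 10 CPM, in Adamts4, an aggrecan-cutting protease (2.35, adjusted p = 0.00733), and Adam22 (-2.28, adjusted p = 0.000855). Adamts4 was not called without M0 replicate 1 (3.11, adjusted p = 0.0693), M0 replicate 2 (1.89, 0.136) or M1 replicate 2 (1.64, 0.117). Adamts2, which trims procollagen, was lower (-0.90, adjusted p = 0.00725), but its call was lost without M0 replicate 1 (-0.63, adjusted p = 0.124). The list had 2 higher and 3 lower without M0 replicate 1, and 2 and 4 without M0 replicate 2.

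Among matrix genes whose proteins these enzymes can cut, 16 of 31 tested genes fell and 7 rose, with 8 not passed. The median log2 fold change was -0.55. Over all tested genes, 24.0% were called lower and 24.2% higher. Vcan, the proteoglycan versican, rose from 4.17 and 5.79 CPM to 61.0 and 77.6 CPM (3.81, SE 0.19, adjusted p = 3.33e-08). The basement membrane collagen gene Col4a2 rose from 8.77 and 8.92 CPM to 23.1 and 25.7 CPM (1.46, adjusted p = 3.31e-05). Col3a1, a fibrillar collagen, rose from 5.03 and 5.45 CPM to 12.9 and 14.9 CPM (1.41, adjusted p = 0.000287). Among the genes at far higher CPM, some fell and others did not pass. Spp1 was at 964 and 1169 CPM in M0 and 999.96 and 889 CPM in M1 (-0.18, adjusted p = 0.225 by edgeR). Thbs1 was at 421 and 444 CPM in M0 and 363 and 411 CPM in M1 (-0.16, adjusted p = 0.209 by edgeR). Col1a1, also a fibrillar collagen, fell from 317 and 303 CPM to 192 and 214 CPM (-0.61, adjusted p = 0.0004 by edgeR). Col1a2 fell from 372 and 363 CPM to 235 and 261 CPM (-0.57, adjusted p = 0.000597). Fn1, the fibronectin gene, fell from 335 and 304 CPM to 126 and 177 CPM (-1.08, adjusted p = 9.86e-05). Nid1, the basement membrane linker nidogen, was lower (-1.36, adjusted p = 0.00557), but did not pass when M0 replicate 1 (-1.42, adjusted p = 0.126) or M0 replicate 2 (-1.30, adjusted p = 0.1498) was left out. Without M0 replicate 1 the list had 5 higher and 9 lower, and without M0 replicate 2 it had 4 and 8.

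**Figure D5:**
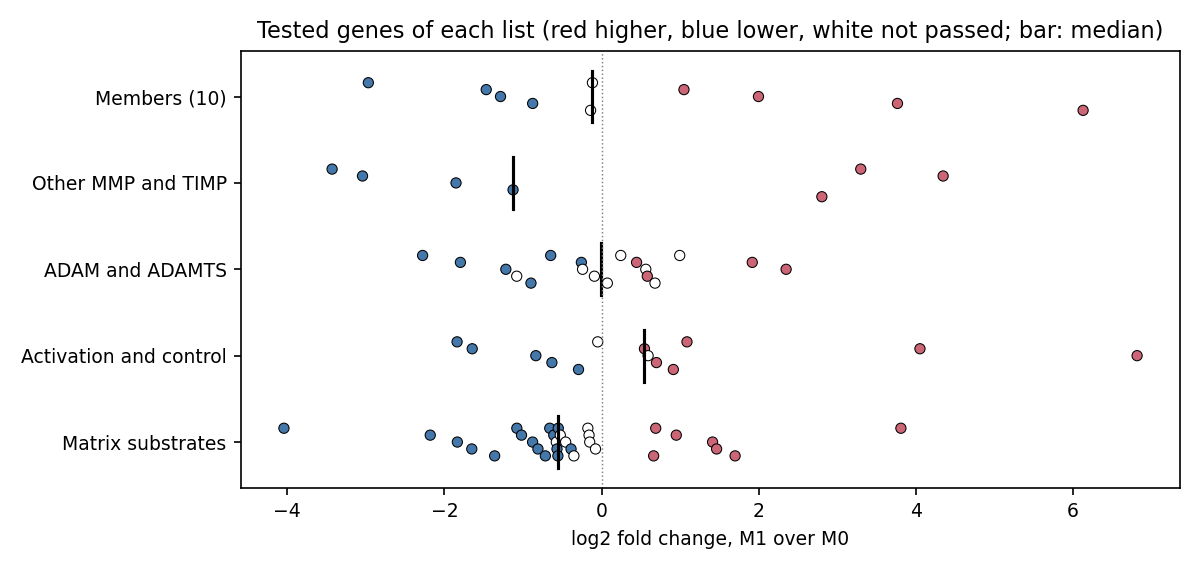
Log2 fold change of M1 over M0 for each tested gene of 5 lists, with red for called higher, blue for called lower, white for not passed and a bar at the list median. Genes without a count in a group are drawn at their bound, and the members spread from -2.97 (Timp2) to 6.13 (Mmp13).

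Other cells that could be in a marrow culture carry some of these genes, so their markers are given beside the members. For comparison, 24.2% of all tested genes were called higher in M1 and 24.0% lower. For neutrophils, a source of Mmp8, Mmp9 and Mmp25, the summed level of 14 markers was 354 to 365 CPM in M0 and 357 to 382 CPM in M1. Of 11 tested, 8 were lower in M1, 2 higher and 1 not passed, and the defining gene Ly6g had 4 and 6 counts in M0 and none in M1. Cebpe and Retnlg also had no count in M1. The granule gene Ltf fell from 39.9 and 30.8 CPM to 4.74 and 5.47 CPM. The markers that rose were Csf3r, from 108.1 and 108.2 CPM to 233 and 246 CPM, and Camp, from 2.88 and 2.90 CPM to 7.08 and 6.83 CPM. Of the genes named beside this list, Mmp8 fell and Mmp9 and Mmp25 rose. The 12 stromal markers, for cells that carry Mmp2, Mmp13, Mmp14 and the Timp genes, summed to 829 to 850.2 CPM in M0 and 528 to 605 CPM in M1. Of 10 tested, 4 were higher, 5 lower and 1 not passed, and Lepr, with 6 and 8 counts in M0, had none in M1. Most of the M0 sum was Col1a1 and Col1a2, and both fell. Col1a1 went from 317 and 303 CPM to 192 and 214 CPM, and Col1a2 from 372 and 363 CPM to 235 and 261 CPM. The stromal markers that rose were Col3a1, Dcn, Pdgfrb and Thy1. For osteoclasts, which make Mmp9, 9 markers summed to 486 to 488 CPM in M0 and 366 to 370.2 CPM in M1, with 4 of 8 higher, 3 lower and 1 not passed. Most of the M0 sum was Atp6v0d2, which fell from 372 and 373 CPM to 13.5 and 11.99 CPM, and Ctsk and Itgb3 fell as well. Those that rose were Nfatc1, Acp5, Ocstamp and Calcr, with Acp5 going from 11.2 and 13.6 CPM to 105 and 104 CPM. The 6 endothelial markers analysed summed to 27.5 to 30.2 CPM in M0 and 14.6 to 19.4 CPM in M1, with Tek at 0 in every library. Most of the M0 sum was Vwf, which fell from 25.6 and 24.3 CPM to 2.71 and 3.14 CPM, while the other tested markers, Kdr and Cdh5, rose. Of the neutrophil, osteoclast and endothelial markers named here, Camp, Itgb3, Calcr and Cdh5 were not called without M0 replicate 1 or without M0 replicate 2. Nor was Cdh5 called without M1 replicate 1. Fits that leave out a library are not given for the stromal markers. The part of these cells in the member results was not tested.

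The tested genes whose profile over the 4 libraries was most like that of Mmp13 and Timp2 were found by the Euclidean distance between centred log2 CPM, among 8995 genes with a mean of 10 CPM or more. Nearest to Mmp13 were Iigp1 (distance 0.105), Oasl1 (0.164) and Gbp7 (0.199), with log2 fold changes of 6.59, 6.19 and 6.02. These belong to interferon-induced families. With 2 libraries a group, the distance rests mostly on the size of the change between groups. Shared regulation was not tested. Nearest to Timp2 were Slc26a11 (distance 0.0431), Vwf (0.0674), the endothelial marker given above, and Vsig4 (0.122), with log2 fold changes of -3.04, -3.09 and -3.04. The pseudocount of 0.5 CPM shrinks the change of genes that are low in a group, such as Iigp1 at 1.20 and 1.27 CPM in M0, so the order of distances need not follow the fitted fold changes.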

How the data were processed

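Total RNA had its DNA digested and its ribosomal RNA removed, per the labels' protocols. The authors deposited 1 table of raw read counts for each library, with a row for each symbol. The submitters' processing notes name featureCounts, Subread 2.0.1, the build mm10, DESeq2 1.30.1 and R 4.0.4. The aligner, annotation and strand setting are not given in the sources used here. Depth was 15921466 to 18987705 counts a library.

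The low-count filter filterByExpr (edgeR 4.0.16, with 10 as minimum count and 15 as minimum total) kept 12966 genes. The test of M1 against M0 was edgeR's quasi-likelihood test, run in R 4.3.3 with TMM factors, a group term only and Benjamini-Hochberg adjustment over all tested genes. The SE of a log2 fold change is its size over the square root of the F statistic. Exon lengths, positions and shared 50-base stretches came from GENCODE M21 on GRCm38, in which 97.8% of symbols were found. The nearest profiles used a pseudocount of 0.5 CPM. Intervals and floors cover counting error only. The fit was tested on simulated data. Alternatives were 12 other settings of the fit, among them limma 3.58.1 and DESeq2 1.42.0, and a second choice of length.

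Members and lists were chosen with earlier results of these data known. Named were all members, every family gene with a count, and of each other list the called genes of 10 CPM or more that changed most (up to 4) or against most of the list (up to 2), plus the 3 genes nearest in profile to Mmp13 and to Timp2. Chosen after their values were seen were the marker genes Nos2, Ltf, Csf3r, Camp, Ly6g, Cebpe, Retnlg, Acp5, Atp6v0d2, Ctsk, Itgb3, Nfatc1, Ocstamp and Calcr. So were the marker genes Lyz2, Cd68, Mertk, Lepr, Dcn, Pdgfrb, Thy1, Tek, Kdr, Cdh5 and Vwf, and the overlapping genes Tmem198b, Syn1 and Syn3. The same holds for the list genes Plaur, Serpine2, Adam22, Adamts4, Col1a1, Col1a2, Fn1, Spp1 and Thbs1.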

Additional observations from a re-analysis of the deposited data

How the results depend on the processing

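The calls of Mmp12, Mmp13, Mmp14, Timp1, Timp2 and Timp3 kept direction and threshold in all 12 alternative fits, with adjusted p of at most 0.0294 (Timp3). Their log2 fold changes ranged from 5.87 to 6.15 for Mmp13, 3.51 to 3.88 for Mmp14, -1.72 to -1.41 for Mmp12, 1.74 to 2.12 for Timp1, -3.22 to -2.87 for Timp2 and -1.55 to -1.06 for Timp3. Members called higher numbered 3 or 4 and lower 3 to 5. Over all genes, library totals gave 2024 higher and 4776 lower calls in place of 3140 and 3109 (29.8% of calls higher instead of 50.2%). Upper-quartile factors gave 41.0%. Leaving out 1 library gave 1691 to 2966 higher and 1463 to 2855 lower. With the replicate number as a block, 4 members were higher and 4 lower, and of all genes 2957 and 2974. The correlation of same-numbered deviations over all tested genes was -0.0757. With 2 libraries a group, this value cannot settle whether the numbers pair the libraries.

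With the longest transcript as length, mean shares in M0 were 2.24% for Mmp2, 2.46% for Mmp8, 1.56% for Mmp9, 82.6% for Mmp12, 1.18% for Mmp13, 6.88% for Mmp14, 3.11% for Mmp19, 73.9% for Timp2 and 9.85% for Timp3. In M1 they were 0.956% for Mmp2, 0.624% for Mmp8, 13.9% for Mmp12, 38.4% for Mmp13, 43.3% for Mmp14, 1.31% for Mmp19 and 5.22% for Timp3. Ratios in M0 and M1 became 0.256 and 27.2 for Mmp14:Timp2, 0.0832 and 0.600 for Mmp2:Timp2 and 14.0 and 1.28 for Mmp12:Timp1, and Mmp9:Timp1 in M0 became 0.264. The summed MMP over summed TIMP level was 1.93 and 5.86 with exon lengths and 2.75 and 7.60 with transcript lengths. At 2 libraries a group, differences as small as those of Mmp2 and Mmp19 were not told apart from 0.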
